A study of Mus musculus with 6 samples.

Results

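Potassium channels and voltage-gated calcium channels were followed in the aorta of wild-type and apoE-/- mice. Members were all probe sets of the array whose platform annotation gives a single gene symbol that begins with Kcn, further letters and a digit, or with Cacna, Cacnb or Cacng. The rule found 222 of the 45101 probe sets on the array, belonging to 108 gene symbols. Of these, 81 are potassium channel subunits or their auxiliary proteins, 24 are calcium channel subunits, and 3 are non-coding RNAs whose symbols match the rule (Kcnq1ot1, Kcnmb4os1 and Kcnmb4os2). The study compared total RNA from whole aorta of 32-week-old C57BL/6J mice with that of apoE-/- mice of the same age, stated as C57BL/6J apoE-/-, on 6 single-colour arrays. Each genotype had 3 arrays. ApoE-/- mice lack apolipoprotein E, the ligand that clears remnant lipoproteins from blood, and are a widely used model of high plasma cholesterol and atherosclerosis. The labels give no diet, sex or vessel segment, and leave unsaid whether a replicate stands for 1 animal or for a pool. The p-values therefore reflect the spread among these arrays alone, and that spread may be technical.

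In vascular smooth muscle, potassium channels set the resting membrane potential, and voltage-gated calcium channels admit the calcium that starts contraction. L-type calcium channels open on depolarisation. Large-conductance calcium-activated potassium (BK) channels, voltage-gated (Kv) channels, ATP-sensitive (KATP) channels and 2-pore-domain (K2P) leak channels oppose that depolarisation. Macrophages and lymphocytes use a different set, among them the calcium-activated channel KCa3.1, which keeps the membrane negative during calcium entry. Skeletal muscle, heart and nerve have channel genes of their own, and the wall of an aorta sample can hold remnants of each of these tissues.

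Upstream sequences are shown for 4 genes on which the results turn, namely Cacna1c, the only channel gene that passed the test, both subunits of the smooth muscle BK channel, Kcnma1 and Kcnmb1, and Kcnj8, whose values went the other way. Each is the 250 bases before an annotated start, 5′ to 3′, from RefSeq's promoter table for build GRCm38.p6, with capitals marking GGGCGG (a GC box) on either strand, overlapping matches included. The Cacna1c start shown lies at chr6:119108496-119108745 on the minus strand, Kcnma1 at chr14:24004206-24004455 on the minus strand, Kcnmb1 at chr11:33962763-33963012 on the plus strand and Kcnj8 at chr6:142571615-142571864 on the minus strand.
Cacna1c: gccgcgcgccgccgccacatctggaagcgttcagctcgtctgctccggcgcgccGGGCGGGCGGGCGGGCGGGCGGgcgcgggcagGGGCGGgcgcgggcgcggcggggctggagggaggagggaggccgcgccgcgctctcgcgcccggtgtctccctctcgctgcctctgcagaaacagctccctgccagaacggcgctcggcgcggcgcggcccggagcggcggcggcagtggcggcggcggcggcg
Kcnma1: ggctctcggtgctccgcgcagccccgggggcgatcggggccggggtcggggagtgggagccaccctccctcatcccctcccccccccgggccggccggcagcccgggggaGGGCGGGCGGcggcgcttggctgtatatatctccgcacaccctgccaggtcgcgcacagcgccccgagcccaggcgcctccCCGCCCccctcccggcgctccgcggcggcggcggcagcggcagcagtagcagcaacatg
Kcnmb1: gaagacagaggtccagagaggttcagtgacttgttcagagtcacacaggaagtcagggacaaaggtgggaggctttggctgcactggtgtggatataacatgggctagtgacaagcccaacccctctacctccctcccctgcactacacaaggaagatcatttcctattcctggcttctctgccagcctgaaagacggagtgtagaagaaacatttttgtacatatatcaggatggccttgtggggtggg
Kcnj8: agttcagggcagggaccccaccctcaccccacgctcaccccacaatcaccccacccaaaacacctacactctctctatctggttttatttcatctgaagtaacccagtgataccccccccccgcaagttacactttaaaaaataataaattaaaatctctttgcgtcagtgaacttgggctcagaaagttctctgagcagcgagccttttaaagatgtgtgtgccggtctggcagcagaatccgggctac
The Cacna1c start shown held 6 GC boxes and was 82.8% G and C, and the other 2 starts of this gene in the table held none. The Kcnma1 start held 3 GC boxes at 79.2% G and C, and the Kcnmb1 and Kcnj8 starts held none at 50.8% and 49.2%. Over the 32851 starts of the table, 32.7% held at least 1 GC box within 250 bases, against 24 of the 61 starts (39.3%) of the 43 tested channel genes found in it by gene identifier. The CArG box, the serum response factor motif of many contractile genes, matched in 0 of those 61 starts and in 1.47% of all starts. These are matches of letters in a window and show no binding.

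The array data were read as deposited intensities on a linear scale, in units to which every array had been scaled by the authors. Median intensity lay between 178 and 195.5 units per array. Apoe, the disrupted gene, read 4309 to 5686 units on the wild-type arrays and 56.3 to 462.1 on the apoE-/- arrays. All 10 smooth muscle marker genes passed the intensity filter described below. Skeletal muscle markers summed to 28936 units on the wild type replicate 3 array to 1454 and 1853 on the other wild-type arrays and to between 987 and 1102 on the apoE-/- arrays, so wild type replicate 3 stands apart for muscle genes. The 10 macrophage markers summed to between 13177 and 14297 units on the wild-type arrays and between 34488 and 50236 on the apoE-/- arrays, lowest on apoE-/- replicate 2.

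Of the 108 symbols, 55 had a probe set above a filter that removed the dimmest 40% of the array, and each was represented by its brightest probe set. The other 53 were not tested. Changes are differences of log2(intensity + 16), apoE-/- minus wild type, a scale that understates changes of dim genes. A gene was called where its limma p, adjusted by Benjamini-Hochberg across the 13031 genes of the fit, was under 0.05. By that rule 1 channel gene, Cacna1c, fell and 0 rose, while of all genes tested 0.483% were called lower, 3.15% higher and 3.63% in either direction. Without the adjustment, 17 of the 55 had a p under 0.05, against 18.4% of all genes tested. In 14 of the 55 channel genes all 3 apoE-/- arrays read below all 3 wild-type arrays, against 13.8% of all genes tested, and in 4 all 3 read above, against 10.9%. In either direction that is 18 of the 55, or 32.7%, against 24.6% of all genes tested. The median log2 change of the 55 was -0.19, and 39 of them were negative, whereas over all genes tested the median was -0.05 and 58.9% were negative. These counts cover only genes that passed the filter and are a description of them.

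**Figure D1:**
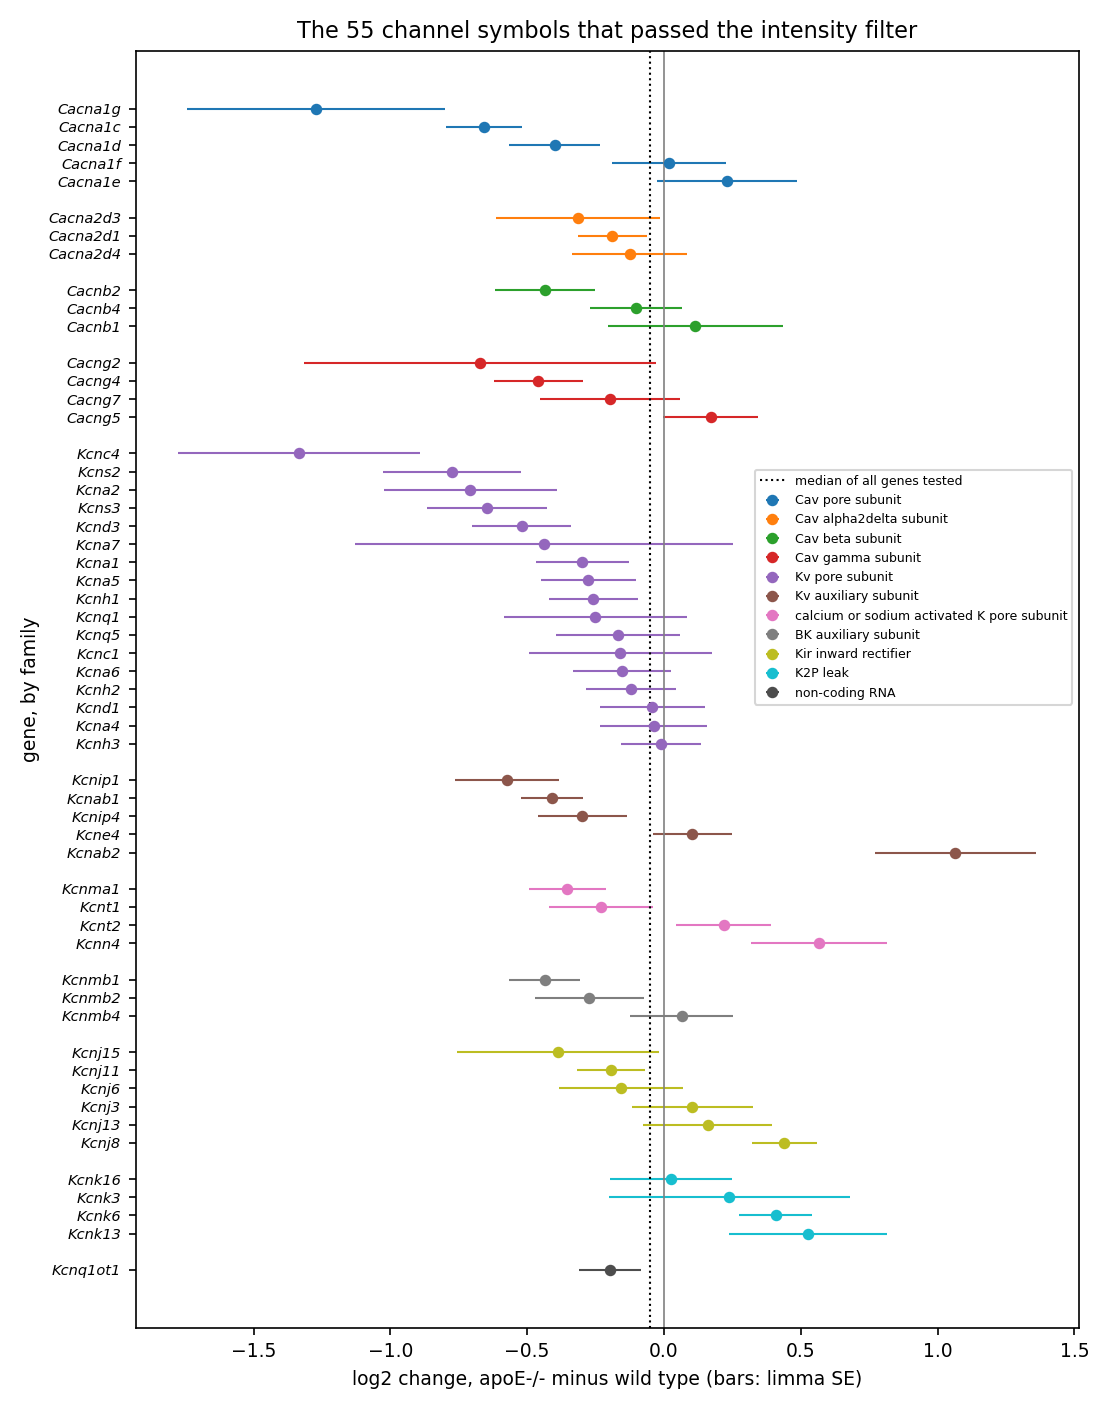
Log2 change (apoE-/- minus wild type, 3 arrays each) of the 55 channel symbols that passed the filter, grouped by family, with limma standard errors as bars and the median of all genes tested as a dotted line. Kv pore subunits lie at or left of 0 and K2P channels to the right of it, and only Cacna1c passed the test.

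Cacna1c, which encodes the pore of the L-type channel Cav1.2, the main route of calcium entry for contraction of arterial muscle, was lower in apoE-/- aorta. Its brightest probe set read 635.3, 591.3 and 724.5 units on wild-type replicates 1 to 3 and 396.3, 462.4 and 362.8 units on apoE-/- replicates 1 to 3. Every apoE-/- array lay below every wild-type array. The means were 650 ± 67.9 and 407 ± 50.7 units (SD, n = 3). On the log2 scale the change was -0.66 ± 0.14 (SE, adjusted p = 0.0380), or 1.58-fold lower. A further Cacna1c probe set read 546.6, 423.4 and 595.9 units in wild type and 322.8, 378.7 and 251.8 units in apoE-/-, again without overlap. Its log2 change was -0.69 ± 0.19, which did not pass when every probe set was tested on its own (adjusted p = 0.107), whereas the brightest did (adjusted p = 0.0445). In whole tissue, fewer cells of a type and less RNA per cell cannot be told apart. Leaving out wild type replicate 1 (adjusted p = 0.112), 2 (0.0588) or 3 (0.142) ended the call. So did leaving out apoE-/- replicate 1 (0.137) or 3 (0.145), whereas without apoE-/- replicate 2 it held (0.0249), and the log2 change was between -0.75 and -0.58 under every alternative run.

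The other calcium channel pore genes above the filter did not pass. Cacna1g, the T-type channel Cav3.1, read 216.9, 185.0 and 234.3 units in wild type and 119.7, 23.1 and 140.7 units in apoE-/-. The groups did not overlap, but the size of the log2 change of -1.27 ± 0.47 (SE, adjusted p = 0.202) rests on 1 low array, apoE-/- replicate 2, and was -0.64 without it. The apoE-/- levels are not shown to be above background, and the gene passed the filter through the wild-type arrays, so neither size is firm. Cacna1d, the L-type channel Cav1.3 of pacemaker and endocrine cells, had a log2 change of -0.40 ± 0.16 (adjusted p = 0.248), with 3 apoE-/- values below the 3 wild-type ones, while its other kept probe set had -0.19 with overlapping groups. The retinal Cacna1f and the neuronal Cacna1e had log2 changes of 0.02 and 0.23 and overlapping groups. They are named after their values were seen, to complete the 5 pore genes tested.

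Among the auxiliary subunits of calcium channels, Cacnb2, the beta subunit that brings the pore to the membrane, read 943.0, 702.4 and 940.1 units in wild type and 556.7, 810.7 and 546.4 units in apoE-/-. The apoE-/- replicate 2 array lay inside the wild-type range and the other apoE-/- arrays below it, with a log2 change of -0.44 ± 0.18 (SE, adjusted p = 0.253). A further Cacnb2 probe set, at 267 and 268 units on average, had a log2 change of 0.03. Cacna2d1, the alpha2delta subunit that raises surface density of the channel, had overlapping groups at 2739 ± 446 and 2380 ± 110 units (SD, n = 3), and its 4 kept probe sets ranged from -0.24 to 0.32 in log2.

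The smooth muscle BK channel joins a pore, Kcnma1, to the beta1 subunit Kcnmb1, which raises its sensitivity to calcium and is largely restricted to smooth muscle. Kcnmb1 read 3360, 3071 and 3365 units in wild type and 2074, 2937 and 2288 units in apoE-/-, again without overlap. Its log2 change of -0.44 ± 0.13 (SE) did not pass (adjusted p = 0.124). The other Kcnmb1 probe set gave 1148, 1135 and 1167 units against 1118, 1167 and 787.4, so 2 of its 3 apoE-/- arrays were close to the wild-type values and only replicate 3 was clearly lower. Kcnma1 read 1688, 1460 and 1877 units in wild type and 1267, 1542 and 1127 units in apoE-/-, with apoE-/- replicate 2 above the lowest wild-type array. Its log2 change was -0.35 ± 0.14 (adjusted p = 0.228), and its 5 kept probe sets were all negative, from -0.38 to -0.13. Among the other BK beta subunits, Kcnmb2 had a log2 change of -0.27 ± 0.20 (adjusted p = 0.515) without overlap, but its probe set under the filter had 0.47 with overlap. The neuronal Kcnmb4 (a name chosen with its value known) had 0.06 with overlap.

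**Figure D2:**
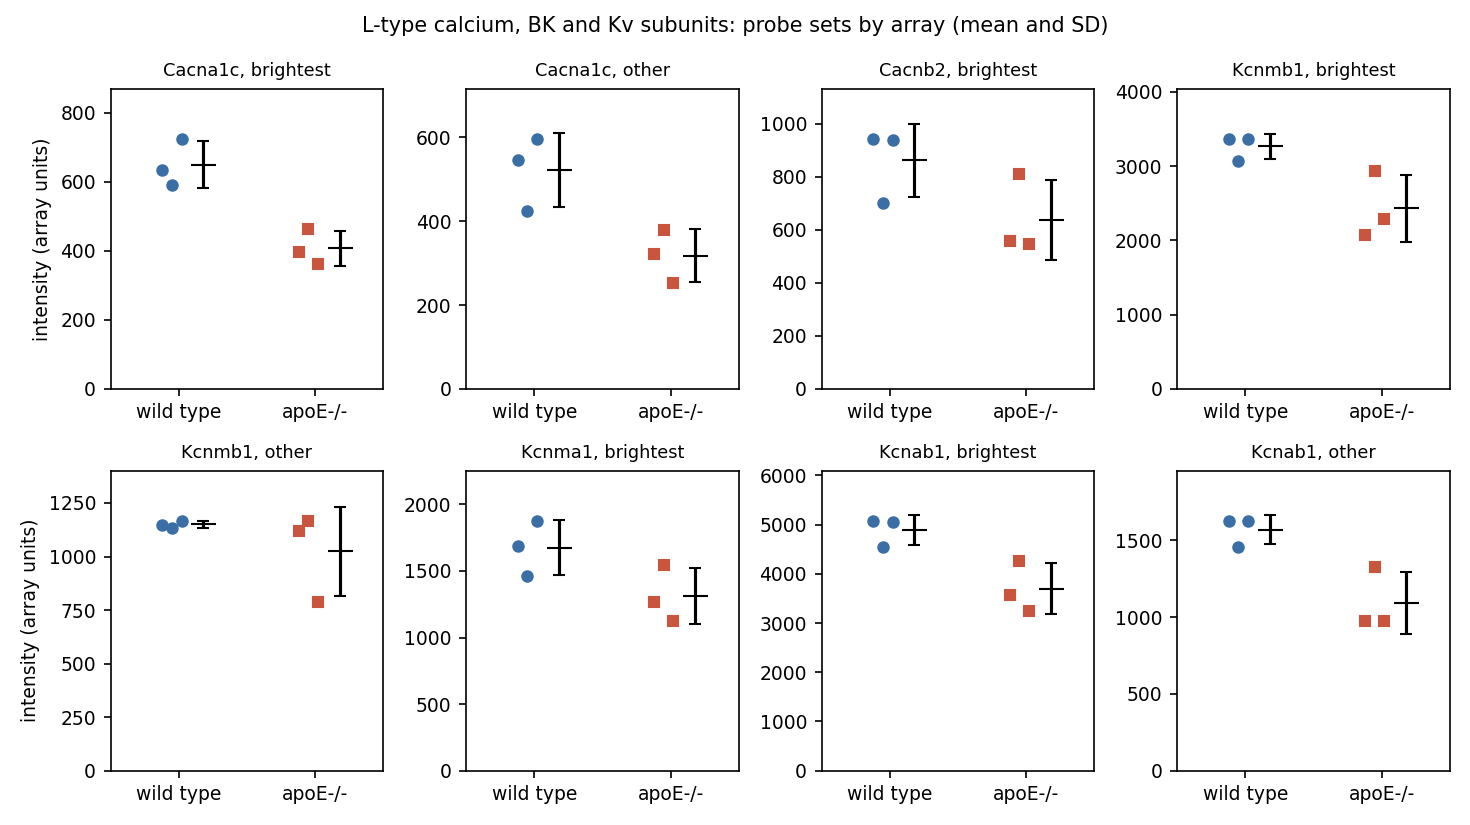
Intensity in array units of probe sets of Cacna1c, Cacnb2, Kcnmb1, Kcnma1 and Kcnab1 on 3 wild-type (circles) and 3 apoE-/- arrays (squares), replicates 1 to 3 from left to right, with mean and SD at the right of each group. Both Cacna1c and both Kcnab1 probe sets separate the genotypes, as does the brightest of Kcnmb1, whereas the other Kcnmb1 probe set and the brightest of Cacnb2 and Kcnma1 overlap.

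Kv channels repolarise the muscle cell. Kcnab1, a cytoplasmic beta subunit of Kv1 channels, read 5078, 4537 and 5043 units in wild type and 3573, 4264 and 3250 units in apoE-/-, without overlap. Its log2 change was -0.41 ± 0.11 (SE, adjusted p = 0.1004). A further Kcnab1 probe set also separated the groups, at 1628, 1459 and 1623 units against 974.8, 1327 and 978.2, with a log2 change of -0.53 ± 0.14 (adjusted p = 0.0904 when every probe set was tested). Kcns3, a silent subunit that modifies Kv2 channels, read 211.8, 303.5 and 333.0 units against 136.9, 185.7 and 198.6. Its log2 change was -0.65 ± 0.22 (adjusted p = 0.167), and its other kept probe set, at -0.18, had overlapping groups. Kcna5, the Kv1.5 pore, had a log2 change of -0.28 ± 0.17 (adjusted p = 0.450) with groups just apart, 234.2 to 326.0 units against 206.2 to 229.6, and -0.13 without wild type replicate 2. Kcnq5, a Kv7 channel of arterial muscle, had -0.17 ± 0.23 (adjusted p = 0.736), while a second Kcnq5 probe set had -0.46 ± 0.15 without overlap (adjusted p = 0.165 when every probe set was tested). Kcne4, an auxiliary protein of Kv7 channels, had 0.10 ± 0.14 (adjusted p = 0.746).

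All 17 Kv pore genes above the filter, in smooth muscle and other lists together, had a negative log2 change, with a median of -0.26, and none passed the test, while 58.9% of all genes tested were negative. In 6 of the 17 all apoE-/- arrays were lower, against 13.8% of all genes tested. Kcnc4 and Kcns2, both among these 6, had apoE-/- means of 82.7 and 109 units, which are levels of probe sets under the filter. Kcna7, whose groups overlapped, had an apoE-/- mean of 115 units. These genes passed the filter through wild-type arrays, so their negative signs follow in part from the filter. With each array centred on its median, 16 of the 17 were negative, Kcnh3 (-0.01 before centring) being the exception. Leaving out single arrays left between 13 and 16 negative, the fewest without wild type replicate 3. Without the filter, 27 of 31 Kv pore genes were negative.

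Some inward rectifier and leak channel genes had positive log2 changes. Kcnj8 encodes Kir6.1, the pore of the vascular KATP channel, which opens when the cell's energy supply falls and also marks pericytes. It read 964.0, 986.8 and 907.2 units in wild type and 1469, 1112 and 1336 units in apoE-/-. All apoE-/- arrays lay above all wild-type arrays, with replicate 2 the lowest of them. The log2 change was 0.44 ± 0.12 (SE), and it did not pass (adjusted p = 0.0962). The SUR2 subunit Abcc9, which pairs with Kir6.1, was chosen for mention with its value known. It had -0.01 ± 0.09 (adjusted p = 0.974), at 8093 ± 325 and 8071 ± 702 units (SD, n = 3). Kcnj11, the Kir6.2 pore of KATP channels in muscle and pancreatic islets, had -0.19 ± 0.12 (adjusted p = 0.459).

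Kcnk6, the leak channel TWIK2 of arterial muscle and macrophages, read 862.2, 765.6 and 828.2 units in wild type and 1116, 912.0 and 1272 units in apoE-/-. The groups did not overlap, and the log2 change of 0.41 ± 0.13 (SE) did not pass (adjusted p = 0.154). Kcnk3, the acid-sensitive leak channel TASK1, varied from 141.2 to 643.9 units among the wild-type arrays alone, so its log2 change of 0.24 ± 0.44 (adjusted p = 0.817) has no clear sign. All 4 K2P genes above the filter were positive, with a median of 0.32. Without the filter 5 of 12 were.

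**Figure D3:**
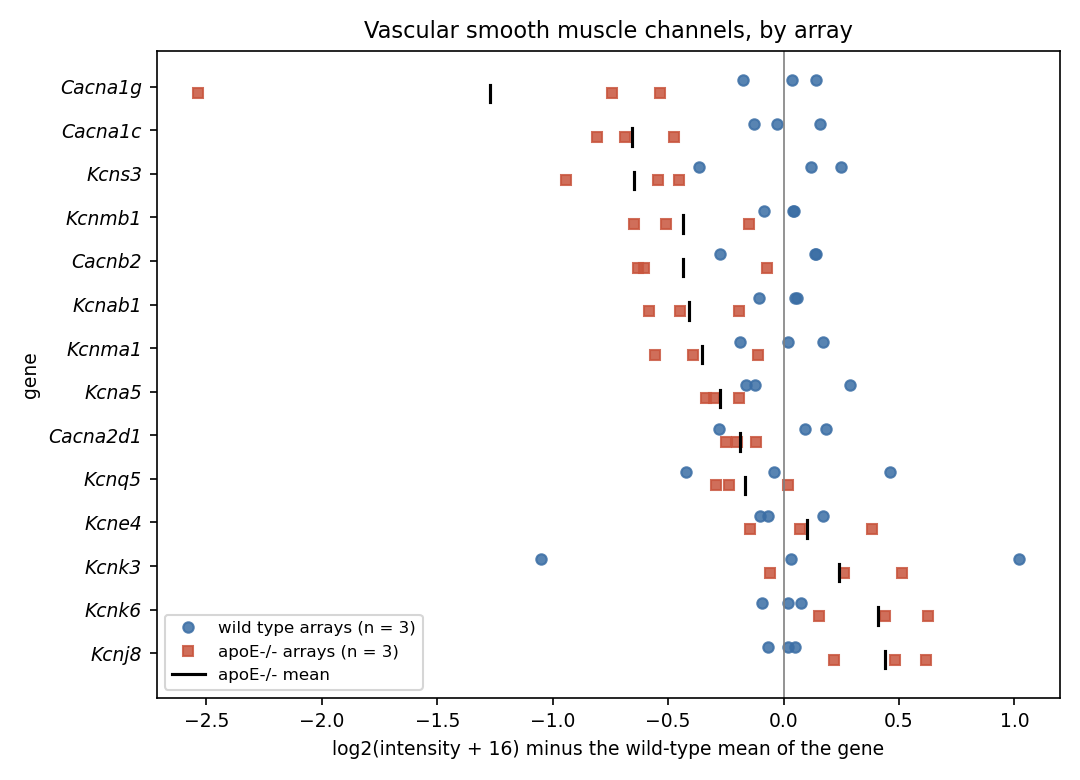
The 14 tested vascular smooth muscle channels, each array drawn as its log2(intensity + 16) minus the gene's wild-type mean, with circles for 3 wild-type arrays, squares for 3 apoE-/- arrays and a bar at the apoE-/- mean. The 10 genes from Cacna1g to Kcnq5 have negative apoE-/- means, and Kcnj8 and Kcnk6 are the genes with all apoE-/- arrays above all wild-type arrays.

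Read as a list, 20 genes had been set down as vascular smooth muscle channels, of which 3 were not analysed here and 3 lay under the filter (Kcnj2, Kcnk2 and Cacna1h). Of the 14 tested, 1 fell and none rose, against 0.483% called lower and 3.15% called higher over all genes tested. In 6 of the 14 the apoE-/- arrays all lay lower (42.9%, against 13.8% of all genes tested) and in 2 all higher (14.3%, against 10.9%). The 6 include Cacna1g, which passed the filter through the wild-type arrays, so that count follows in part from the filter. The median log2 change was -0.31, and with the lower 60% of probe sets left out it was -0.19 over the 11 genes remaining. On single arrays, the median of the list against the wild-type means was -0.35, -0.11 and -0.35 on apoE-/- replicates 1 to 3 and 0.03, -0.10 and 0.09 on wild-type replicates 1 to 3, so apoE-/- replicate 2 lay close to wild type replicate 2. Without apoE-/- replicate 2, Kcnmb1 (adjusted p = 0.0174), Kcnab1 (0.0308) and Cacna1c (0.0249) of this list passed in the lower direction, and Kcnj8 (0.0281) and Kcnk6 (0.0441) in the higher. That is the apoE-/- array nearest to wild type in this list. Leaving it out also raised the calls over the whole array, from 473 to 701 of the 13031 genes tested. Beside these values, the 10 smooth muscle markers had a median log2 change of -0.15 with none called, and all 10 were negative. Of the 10, 4 had all apoE-/- arrays lower (40%, against 13.8% of all genes tested). An unadjusted limma p under 0.05 was seen in 4, against 18.4% of all genes tested. They summed to between 75036 and 85630 units in wild type and 65868 and 79312 in apoE-/-. The 3′ over the 5′ control probe set of actin gave a ratio of 1.16 to 1.21 in wild type and 1.15 to 1.16 in apoE-/-. The part of either in the channel values was not tested.

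The tested leukocyte channels all had positive log2 changes, and none passed the test. Of 6 listed genes, Kcna3 and Kcnk5 lay under the filter and the other 4 were tested, with 0 called and a median log2 change of 0.55. Without the filter 5 of 6 were positive, Kcnk5 being the exception, and the median was 0.47. Kcnab2, the Kv beta subunit of immune and nerve cells, read 162.2, 63.9 and 127.7 units in wild type and 233.6, 228.7 and 290.5 units in apoE-/-. The groups did not overlap, with a log2 change of 1.06 ± 0.29 (SE, adjusted p = 0.1001). The wild-type mean of 118 units lies among the levels of probe sets under the filter, which are not shown to be above background, and the gene passed the filter through the apoE-/- arrays, so the size of the difference is uncertain. Without wild type replicate 2 it was 0.73. A further Kcnab2 probe set, under the filter at 13.1 to 29.7 units, had 0.12 with overlapping groups. Kcnn4, the KCa3.1 channel of macrophages, T cells and endothelium, read 567.2, 599.4 and 305.7 units against 845.6, 597.6 and 692.2, so apoE-/- replicate 2 lay just inside the wild-type range (0.57 ± 0.25, adjusted p = 0.271), and without wild type replicate 3 the log2 change was 0.27. A further Kcnn4 probe set, under the filter, separated the groups, at 76.2, 35.7 and 15.9 units against 152.5, 88.4 and 203.2. Kcnk13, the leak channel THIK1 known from microglia, read 127.9, 187.3 and 168.0 units against 268.7, 146.6 and 331.9, with overlap (0.53 ± 0.29, adjusted p = 0.376), and its probe set under the filter, at 0.3 to 23.4 units, had -0.27.

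Kcnk6, described above, is the other tested gene of the list. On single arrays the median of the 4 genes was 0.76, 0.24 and 0.81 on apoE-/- replicates 1 to 3, against 0.04 to 0.17 on the wild-type arrays. Of the 10 macrophage markers 9 rose, against 3.15% of all genes tested, and 0 were at 0 units. Their list medians were 1.75, 1.36 and 2.14 on the same apoE-/- arrays, again with replicate 2 lowest. Of 6 T cell markers only Cd3g and Cd5 were above the filter, with log2 changes of 0.36 and 0.12 and neither called. The T cell markers with a probe set, 5 of 6, summed to between 424 and 493 units in wild type and between 434 and 755 in apoE-/-, with none at 0. The part of macrophage number in the leukocyte channel values was not tested.

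**Figure D4:**
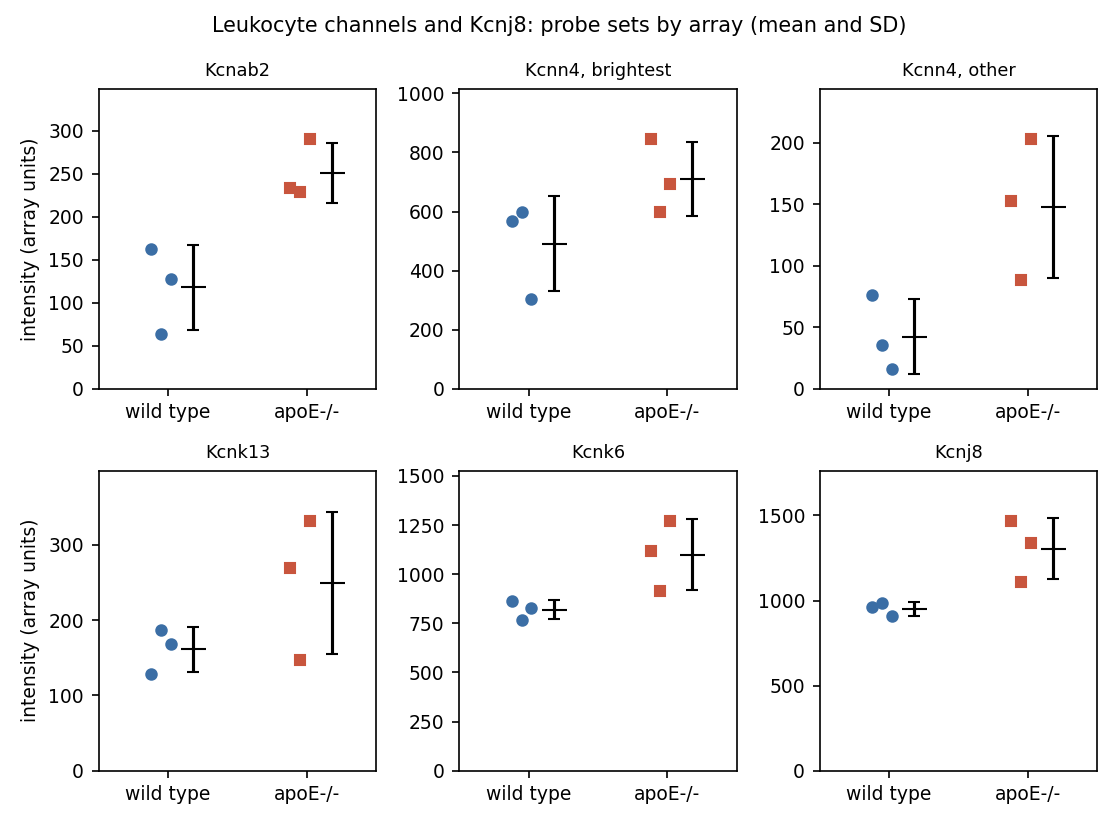
Intensity in array units of Kcnab2, Kcnn4 (2 probe sets), Kcnk13, Kcnk6 and Kcnj8 on 3 wild-type (circles) and 3 apoE-/- arrays (squares), replicates 1 to 3 from left to right, with mean and SD. Kcnab2, Kcnk6, Kcnj8 and the Kcnn4 probe set under the filter have all apoE-/- arrays above all wild-type arrays.

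Channels of the endothelium were nearly out of reach. Of 3 listed, only Kcnn4, shared with the leukocyte list, was tested. Kcnn3, the small-conductance channel SK3, read 8.9 to 11.5 units and Kcnj2, the Kir2.1 channel, 7.5 to 10.4 units over the 6 arrays, levels not shown to be above background. Of 8 endothelial markers 1 rose, against 3.15% of all genes tested. The 8 markers summed to between 8856 and 12373 units in wild type and 12124 and 14566 in apoE-/-.

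Skeletal muscle channels were set against the muscle signal of wild type replicate 3. Of 7 listed genes, 4 were tested and 0 were called, with a median log2 change of -0.19 that became 0.02 without wild type replicate 3. Cacna1s, the L-type pore that senses voltage in skeletal muscle, lay under the filter at 17.6, 18.5 and 112.1 units in wild type and 12.3, 12.8 and 43.0 units in apoE-/-. Its gamma subunit Cacng1 also read highest on wild type replicate 3, at 145.9 units against 39.9 to 91.9 on the other 5 arrays. Of the Cacng6 probe sets, also under the filter, the brighter read highest on wild type replicate 1 (78.7 units) and the dimmer on replicate 3 (40.9 units). These members under the filter fall outside the rule for naming genes. Kcna7, a Kv channel of skeletal muscle, read 231.3, 33.3 and 354.4 units against 132.9, 160.2 and 53.2. Its log2 change of -0.44 ± 0.69 (SE, adjusted p = 0.781) became 0.14 without wild type replicate 3. Cacnb1, the beta subunit of the skeletal muscle channel, had 0.11 ± 0.32 (adjusted p = 0.883). The values of Cacna2d1 and Kcnj11, also on this list, are given above. Kcna7 and Cacna2d1 read highest on wild type replicate 3, whereas Kcnj11 read highest on wild type replicate 2 and Cacnb1 on apoE-/- replicate 2.

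Heart muscle channels gave 0 calls among 5 tested of 10 listed. Kcnd3, the Kv4.3 channel of the transient outward current, came nearest. It read 1709, 1384 and 1390 units in wild type and 915.3, 1388 and 865.0 units in apoE-/-. The apoE-/- replicate 2 array matched the lower wild-type arrays and the other apoE-/- arrays lay far below, so the log2 change of -0.52 ± 0.18 (SE) did not pass (adjusted p = 0.176), whereas without that array it was -0.73 (adjusted p = 0.0174). Of 3 Kcnd3 probe sets under the filter, 1 had all apoE-/- arrays lower (-0.90) and the others overlapped (0.21 and 0.02). Kcnh2, the hERG-type channel, had -0.12 ± 0.16 (adjusted p = 0.738), Kcnq1, the pore of the slow delayed rectifier, -0.25 ± 0.33 (adjusted p = 0.734) and Kcnj3, a G protein-gated rectifier, 0.10 ± 0.22 (adjusted p = 0.844). Of 5 heart muscle markers tested none was called, with a median log2 change of -0.31. In 4 of them (Nppb, Myl7, Actn2 and Mybpc3) all apoE-/- arrays lay below all wild-type arrays (80%, against 13.8% of all genes tested). On the apoE-/- arrays Myl7 (114.8 to 178.0 units) and Actn2 (120.0 to 133.9) read near levels of probe sets under the filter. Such levels are not shown to be above background. Myh6, Tnni3 and Nppa, under the filter, had overlapping groups. The other, Tnnt2, had overlapping groups and a log2 change of 0.08. The sums of the 8 markers with a probe set overlapped, at 1870 to 2613 units in wild type and 1620 to 2582 in apoE-/-, none being at 0. The part of heart muscle RNA in the channel values was not tested.

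Nerve and glia channels made up the longest list. Of 45 genes, 6 were not analysed here and 19 lay under the filter. Of the 20 tested 0 were called, 16 were negative, 5 had all apoE-/- arrays lower (25%, against 13.8% of all genes tested) and 1 had all higher (5%, against 10.9%). The median was -0.21, and -0.10 with the lower 60% of probe sets left out. Kcns2, a silent Kv subunit of neurons, read 188.7, 164.4 and 226.3 units against 128.7, 125.6 and 71.3, a log2 change of -0.77 ± 0.25 (SE, adjusted p = 0.152). Its apoE-/- mean of 109 units lies among the levels of probe sets under the filter, which are not shown to be above background. Kcns2 passed the filter through the wild-type arrays, so the size of the difference is uncertain. Kcnip1, a calcium-binding partner of Kv4 channels, read 212.6, 239.3 and 260.4 units against 125.0, 158.7 and 182.1 (-0.57 ± 0.19, adjusted p = 0.158). Cacng4, a gamma subunit best known as a partner of glutamate receptors, read 307.0, 270.1 and 308.1 units against 185.1, 242.8 and 205.5 (-0.46 ± 0.16, adjusted p = 0.181).

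The groups of these 3 genes did not overlap. Their probe sets under the filter all had overlapping groups, with log2 changes of -0.56 for Kcns2, -0.37 for Cacng4 and 0.21, 0.15 and -0.37 for Kcnip1. Kcna2, a Kv1 channel of axons, read 239.5, 249.2 and 249.9 units against 84.3, 248.5 and 139.7, so apoE-/- replicate 2 equalled the wild-type arrays (-0.71 ± 0.32, adjusted p = 0.278). Without that array its log2 change was -1.07 and passed (adjusted p = 0.0452). The 4 kept probe sets of Kcna2 ranged from -0.71 to 0.35. The 10 nerve and Schwann cell markers with a probe set summed to between 8206 and 8520 units in wild type. In apoE-/- they summed to between 8217 and 9206. Of the 6 that were tested, 5 had a positive log2 change and none was called. Pmp22 alone read 5752.5 to 6539.6 units over the arrays, so the sums mostly follow that gene. Th, under the filter, read lower on all apoE-/- arrays than on all wild-type arrays. Nefl, Nefm and Snap25, also under the filter, had overlapping groups. Levels under the filter are not shown to be above background. The part of nerve RNA in the channel values was not tested.

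Of the 30 symbols in no list, 10 were tested and 0 called. Kcnc4, the fast Kv3.4 channel, read 347.9, 94.3 and 355.8 units in wild type and 91.0, 92.6 and 64.4 units in apoE-/-, so wild type replicate 2 all but met the apoE-/- arrays. Its log2 change was -1.33 ± 0.44 (SE, adjusted p = 0.158). The apoE-/- levels are not shown to be above background, and the gene passed the filter through 2 wild-type arrays, so the size of the difference is uncertain. Without wild type replicate 2 the log2 change was -1.91 and passed (adjusted p = 0.00637). A second Kcnc4 probe set under the filter read 85.9, 119.4 and 184.7 units against 32.2, 50.7 and 38.7. The imprinted non-coding RNA Kcnq1ot1 had -0.20 ± 0.11 (adjusted p = 0.406), with kept probe sets from -0.20 to 0.33.

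Genes that work with these channels were taken from lists of calcium stores, pumps and partner proteins. Of 47 such genes, 33 were tested, 2 fell and 1 rose, against 0.483% called lower and 3.15% called higher over all genes tested. All of the called genes are on the list of release channels and stores. Casq1, the calcium-binding store protein best known from skeletal muscle, read 1934, 1699 and 2564 units in wild type and 993.6, 1007 and 862.5 units in apoE-/-. Its log2 change was -1.08 ± 0.15 (SE, adjusted p = 0.00686). Ryr2, the ryanodine receptor that releases stored calcium beneath the membrane and so gates BK channels, read 789.7, 716.1 and 734.2 units against 440.3, 573.3 and 388.3, a log2 change of -0.68 ± 0.15 (adjusted p = 0.0498). Itpr3, an inositol trisphosphate receptor, read 318.9, 294.0 and 253.6 units against 498.8, 424.2 and 540.2, a log2 change of 0.72 ± 0.15 (adjusted p = 0.0369). The groups of all 3 genes were apart.

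Casq1 read highest on wild type replicate 3, the array with high skeletal muscle markers, and without that array its log2 change was -0.92 (adjusted p = 0.0171). The skeletal muscle markers also differed on the remaining arrays, summing to 1454 and 1853 units on wild type replicates 1 and 2 and to between 987 and 1102 on the apoE-/- arrays. In the main fit, which includes wild type replicate 3, the 6 markers tested were all negative. Of them, 4 had all apoE-/- arrays lower (66.7%, against 13.8% of all genes tested). Tnni2 read 65.9 and 37.8 units on wild type replicates 1 and 2 and 76.2, 37.0 and 106.5 on the apoE-/- arrays. Its negative sign and its place above the filter therefore rest on wild type replicate 3, at 2508.5 units. Of the 6, 1 fell, against 0.483% of all genes tested. The part of these markers in the Casq1 value was not tested. Casq1 was called under all 19 settings run, Itpr3 under 12 and Ryr2 under 8. These counts include the main run and the match on updated symbols, which share the same fit. Ryr2 and Itpr3 each lost the call when wild type replicate 1, 2 or 3 or apoE-/- replicate 1 or 3 was left out, with adjusted p from 0.0955 to 0.170 for Ryr2 and from 0.0704 to 0.152 for Itpr3. In the other partner lists, the genes of smallest p were the calcium pump Atp2b1 (0.58 ± 0.13, adjusted p = 0.0532), the cation channel Trpc1 (-0.59 ± 0.20, adjusted p = 0.172), the Kv4 partner Dpp6 (-0.62 ± 0.23, adjusted p = 0.204), the scaffold Akap5 (0.25 ± 0.19, adjusted p = 0.537) and the SUR1 subunit Abcc8 (-0.11 ± 0.17, adjusted p = 0.768), none of which passed.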

How the data were processed

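Each probe set has 1 deposited intensity per array, linear in scale. The authors had brought the arrays to a common level, since the mean after trimming 2% from both tails is 500.002 units on each. The software is not given in the sources used here, and the table has no detection calls. Array number limits the precision. Symbols came from the platform annotation (34958 probe sets with 1 symbol, 932 with several, not used to name a gene), on which members were matched, and genes were then named by the updated symbol of the GRCm38.p6 gene table where it gave one. The deposited intensities were transformed to log2(intensity + 16). After removal of 64 control probe sets and the 18015 of lowest mean log2 value, 27022 probe sets and 13031 genes remained, each gene represented by the probe set of highest mean log2 value. The comparison used limma 3.58.1 under R 4.3.3 (lmFit and eBayes, the prior variance following intensity). Every adjusted p comes from limma, with Benjamini-Hochberg adjustment over all genes tested. With 3 arrays a genotype, 0.1 is the smallest two-sided p an exact permutation test allows, and none was run. Members and gene lists were chosen with earlier results of these data known, so lists are described by counts and medians without a test. Genes named are every called member, the tested smooth muscle channels, and up to 4 members of each other list, and of symbols in no list, by smallest p; of each partner list, the called genes or else that of smallest p. The alternatives tried were log offsets of 1 and 64, no filter or one of 60%, median centring or quantile normalization, array weights, no trend, probe sets taken by median or singly, members matched on updated symbols, a replicate block and each array left out. The labels give the same replicate numbers to both genotypes without saying that they pair samples.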

Additional observations from a re-analysis of the deposited data

How the results depend on the processing

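One channel gene, Cacna1c, was called in the main analysis, and it was called under 9 of 18 alternatives. Matching members on updated symbols, which is among the 9, reused the main fit and so could not change the p of a gene. The number of channel genes called lower was 0 with no filter (adjusted p of Cacna1c 0.0592), with no intensity trend (0.0556), with probe sets of a gene summarised by their median (0.0564) and with the replicate block (0.129). Leaving out each array in turn gave 0 to 5 genes called lower and 0 to 2 called higher, with the most without apoE-/- replicate 2. The gene called lower without wild type replicate 2 was Kcnc4 and not Cacna1c. Same-numbered arrays deviated from their genotype means with r between -0.18 and -0.05, so the numbers gave no sign of pairing, and the replicate block also took the calls of Ryr2 (adjusted p = 0.112) and Itpr3 (0.111). With it, 301 genes were called over the array, against 473 without it, and 309 with no intensity trend. Leaving out single arrays gave 155 to 701. With the lower 60% of probe sets left out, 24 channel genes were tested, and the median of the smooth muscle channels was -0.19. Of the 24, 4 had all apoE-/- arrays lower and 2 all higher. The shares over all genes were not computed at that filter, and in the main analysis they were 13.8% lower and 10.9% higher. Over single arrays left out, the list medians ranged from -0.39 to -0.28 for smooth muscle, 0.44 to 0.76 for leukocyte, -0.27 to 0.02 for skeletal muscle, -0.23 to 0.03 for heart and -0.31 to -0.16 for nerve and glia channels. Some uncalled genes changed sign when an array was left out, with log2 changes from -0.16 to 0.43 for Cacnb1 (-0.019 with array weights), -1.31 to 0.14 for Kcna7, -0.037 to 0.23 for Kcne4, -0.27 to 0.038 for Kcnh2, -0.10 to 0.27 for Kcnj3, -0.29 to 0.75 for Kcnk3, -0.46 to 0.14 for Kcnq1, -0.38 to 0.063 for Kcnq5 and -0.22 to 0.0017 for Abcc8. Others kept their sign but moved widely, from -1.07 to -0.37 for Kcna2, 0.30 to 0.84 for Kcnk13, -0.31 to -0.094 for Kcnj11, -0.33 to -0.097 for Cacna2d1 and -0.34 to -0.16 for Kcnmb2. The cause of these changes was not tested. The non-overlap counts and the partner genes were added to the alternatives after the data were seen. Signal limits the rest, since 53 of 108 channel symbols had no probe set above the filter.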

Other observations

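Channel symbols under the intensity filter were read without a test. Their probe sets and the dimmer ones of tested genes, 138 in all, had means between 5.13 and 139 units, levels not shown to be above background. In 15 of them (10.9%, against 13.8% of all genes tested) all apoE-/- arrays read below all wild-type arrays and in 3 (2.17%, against 10.9%) above, namely 1 probe set each of Kcnn4, Kcnj10 and Kcnk2, and 101 of the 138 log2 changes were negative. The shares of all genes tested are of genes above the filter, each by its brightest probe set. No share was computed over all probe sets under the filter, so these percentages are not like for like. Kcnj10, the Kir4.1 channel of glia, read 70.3, 76.3 and 73.8 units in wild type and 159.7, 135.4 and 186.0 units in apoE-/-. The leak channel Kcnk2 (TREK1) read 72.2, 56.7 and 78.5 units against 92.3, 92.5 and 79.1. These genes are named after their values were seen.

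Several kept probe sets were available for 18 channel symbols, and 13 had kept probe sets of 1 sign. Cacna2d1, Cacnb2, Kcna2, Kcnh3 and Kcnq1ot1 had kept probe sets of both signs.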
